A study of Mus musculus with 24 samples.

Results

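Long noncoding RNA (lncRNA) genes that stand apart from protein-coding genes have ends at which a nearby peak does not lie at the annotated end of a coding gene as well. All lncRNA genes of the RefSeq annotation on the 19 autosomes whose start and end both lie more than 5 kb from every protein-coding gene were taken, whatever their signal, which gave 6321 of the 33073 autosomal protein-coding and lncRNA genes. Their median length was 9163 b, and the median distance to the nearest coding gene was 49238 b. The body of 42 of them encloses a coding gene.

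The data are CUT&Tag peak lists, a method in which an antibody guides a transposase to the chromatin it binds. Group 3 innate lymphoid cells (ILC3s) of the mouse small intestine were sorted into CCR6+, NKp46+ and DN subsets, with 1 library for each of 2 replicates, 3 subsets, 2 antibodies and 2 genotypes, 24 in all. Mice of genotype Cxxc1flox/flox, called WT here, carry floxed Cxxc1 alleles and no Cre, and mice called KO here carry the same alleles together with a Cre. Ages are labelled as 6 to 8 weeks, while the protocols also speak of aged and young animals and of a culture medium, so age and handling are not settled. The labels do not say whether replicates came from separate mice, and any p-value here therefore reflects variation among these libraries alone, which may be technical.

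Transcribed lncRNA genes are made by RNA polymerase II and, like coding genes, usually carry histone H3 trimethylated at lysine 4 (H3K4me3) around their start. Cxxc1 encodes CFP1, which binds unmethylated CpG dinucleotides through a zinc finger and brings the SET1 methyltransferase complexes to CpG-rich promoters. Host genes of small nucleolar RNAs (snoRNAs) and nuclear RNAs such as Malat1 are transcribed in most cell types, whereas many other lncRNA genes are active in few tissues.

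The lists carry no read totals, so depth is unknown and absence of a call does not show absence of the mark. A gene was said to hold a peak when one overlapped, by 1 b or more, the window of 1000 b to either side of its annotated start or end. On autosomes the H3K4me3 lists held 12463 to 14937 peaks in WT and 11458 to 17602 in KO. The CFP1 lists held 4492 to 7815 peaks in WT and 707 to 1299 in 4 of the KO libraries, but 4801 in the library labelled KO NKp46+ replicate 2 and 8699 in the library labelled KO DN replicate 2, which go against their label. Among the cell type markers, H3K4me3 lay at 6 to 8 of 10 ILC3 genes in WT and at 3 to 5 in KO. Of these genes, Id2, Kit and Tox held it in all 12 libraries and Il1r1 and Gata3 in 0. H3K4me3 lay at 3 to 5 of 5 T cell genes in WT and 2 to 5 in KO, with Cd4 in all 12. Of 4 markers each, H3K4me3 lay in WT and KO at 1 to 4 and 1 to 4 for NK cells and ILC1 (Tbx21 in all 12 libraries), 1 to 2 and 0 to 2 for ILC2 (Il5 and Il13 at 0), 1 to 2 and 1 to 3 for epithelium (Epcam in all 12, Vil1 at 0), 0 to 1 and 0 to 2 for myeloid cells (Csf1r at 0), and 1 to 2 and 1 to 2 for stroma and endothelium (Pdgfra and Cdh5 at 0). The part of these differences between genotypes in the results below was not tested.

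The 300 b around a start (250 b before to 50 b after) are shown for 8 genes that span the findings, from RefSeq and in the build GRCm38.p6, read 5′ to 3′ on the strand of the gene, with every CpG in capitals. Snhg5 (chr9:88522848-88523147, minus strand) and Malat1 (chr19:5802623-5802922, minus strand) are widely transcribed genes that held H3K4me3 in all 12 libraries, as did the immune gene Morrbid (chr2:128429302-128429601, minus strand). Gm29998 (chr19:33391551-33391850, plus strand) held CFP1 in every WT library and in no KO library. 4933424M12Rik (chr4:107783436-107783735, plus strand) and Gm10858 (chr5:146897048-146897347, minus strand) held H3K4me3 in WT libraries only, and 1700028I16Rik (chr10:82811873-82812172, plus strand) in KO libraries only. Snhg11 (chr2:158375463-158375762, plus strand) is rich in CpG and held no peak.
Snhg5: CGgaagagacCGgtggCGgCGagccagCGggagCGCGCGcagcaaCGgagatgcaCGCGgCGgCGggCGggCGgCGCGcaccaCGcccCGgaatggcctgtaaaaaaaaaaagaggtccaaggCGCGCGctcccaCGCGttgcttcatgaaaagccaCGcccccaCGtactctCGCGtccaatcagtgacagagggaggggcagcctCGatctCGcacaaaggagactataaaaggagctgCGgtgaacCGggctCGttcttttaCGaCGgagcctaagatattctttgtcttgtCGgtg
Malat1: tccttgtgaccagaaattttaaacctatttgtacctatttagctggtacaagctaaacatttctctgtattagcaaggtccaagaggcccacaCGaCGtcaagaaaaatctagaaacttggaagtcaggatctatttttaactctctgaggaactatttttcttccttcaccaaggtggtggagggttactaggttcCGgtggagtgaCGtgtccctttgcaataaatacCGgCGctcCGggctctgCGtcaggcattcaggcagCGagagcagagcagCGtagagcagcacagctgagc
Morrbid: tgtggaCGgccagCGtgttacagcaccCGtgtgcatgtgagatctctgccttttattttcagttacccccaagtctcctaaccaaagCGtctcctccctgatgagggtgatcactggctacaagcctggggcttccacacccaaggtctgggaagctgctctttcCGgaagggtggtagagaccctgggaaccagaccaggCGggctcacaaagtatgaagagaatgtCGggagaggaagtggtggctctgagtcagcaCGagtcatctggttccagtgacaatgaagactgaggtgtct
Gm29998: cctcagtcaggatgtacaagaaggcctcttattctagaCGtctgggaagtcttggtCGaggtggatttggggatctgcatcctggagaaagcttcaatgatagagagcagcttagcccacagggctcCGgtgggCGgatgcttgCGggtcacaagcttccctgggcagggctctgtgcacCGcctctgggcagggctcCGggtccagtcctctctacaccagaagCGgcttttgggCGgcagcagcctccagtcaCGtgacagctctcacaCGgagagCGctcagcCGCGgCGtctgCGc
4933424M12Rik: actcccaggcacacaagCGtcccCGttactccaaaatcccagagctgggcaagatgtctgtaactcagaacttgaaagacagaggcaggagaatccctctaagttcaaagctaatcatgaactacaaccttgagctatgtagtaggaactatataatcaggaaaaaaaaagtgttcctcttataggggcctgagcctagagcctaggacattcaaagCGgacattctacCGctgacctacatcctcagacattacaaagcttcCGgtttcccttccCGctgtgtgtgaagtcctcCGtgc
Gm10858: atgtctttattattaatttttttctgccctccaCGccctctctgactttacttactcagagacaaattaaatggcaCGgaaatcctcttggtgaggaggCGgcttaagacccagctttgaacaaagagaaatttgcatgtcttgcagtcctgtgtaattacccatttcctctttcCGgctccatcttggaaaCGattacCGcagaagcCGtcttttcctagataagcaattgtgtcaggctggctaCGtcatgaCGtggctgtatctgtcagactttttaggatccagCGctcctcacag
1700028I16Rik: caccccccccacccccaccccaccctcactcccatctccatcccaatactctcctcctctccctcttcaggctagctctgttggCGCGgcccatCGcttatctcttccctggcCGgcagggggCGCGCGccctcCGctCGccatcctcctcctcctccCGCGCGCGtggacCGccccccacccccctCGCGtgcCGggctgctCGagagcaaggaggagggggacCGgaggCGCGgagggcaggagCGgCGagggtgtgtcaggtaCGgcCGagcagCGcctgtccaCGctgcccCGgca
Snhg11: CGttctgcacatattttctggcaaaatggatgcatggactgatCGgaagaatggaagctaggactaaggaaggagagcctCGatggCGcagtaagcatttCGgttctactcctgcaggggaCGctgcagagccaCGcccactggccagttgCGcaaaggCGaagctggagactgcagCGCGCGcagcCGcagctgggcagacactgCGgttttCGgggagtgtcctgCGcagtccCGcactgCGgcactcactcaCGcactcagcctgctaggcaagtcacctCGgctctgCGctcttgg
The number of CpGs in the shown promoters was 36 for Snhg5, 10 for Malat1, 8 for Morrbid, 16 for Gm29998, 7 for 4933424M12Rik, 10 for Gm10858, 28 for 1700028I16Rik and 21 for Snhg11. Snhg11, without a peak, thus has more CpGs than Malat1 and Morrbid, which were marked in all 12 libraries.

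Few isolated lncRNA genes carried H3K4me3 in these cells. Of the 6321, 5772 (91.3%) held no H3K4me3 peak in any library, 416 (6.58%) held one in 1 to 11 libraries and 133 (2.1%, 95% Wilson interval 1.78% to 2.49%) in all 12. For comparison, H3K4me3 in all 12 libraries was found at 21% of the other autosomal lncRNA genes, at 30% of the 10372 protein-coding genes that are isolated by the same distance from other coding genes, and at 43.5% of all coding genes. These shares are descriptions of gene classes and were not tested. Such intervals cover counting error only, and neighbouring genes can share a peak: the 133 genes held 124 separate H3K4me3 regions, and 51 of them had the end of another annotated gene beside the same windows.

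**Figure D1:**
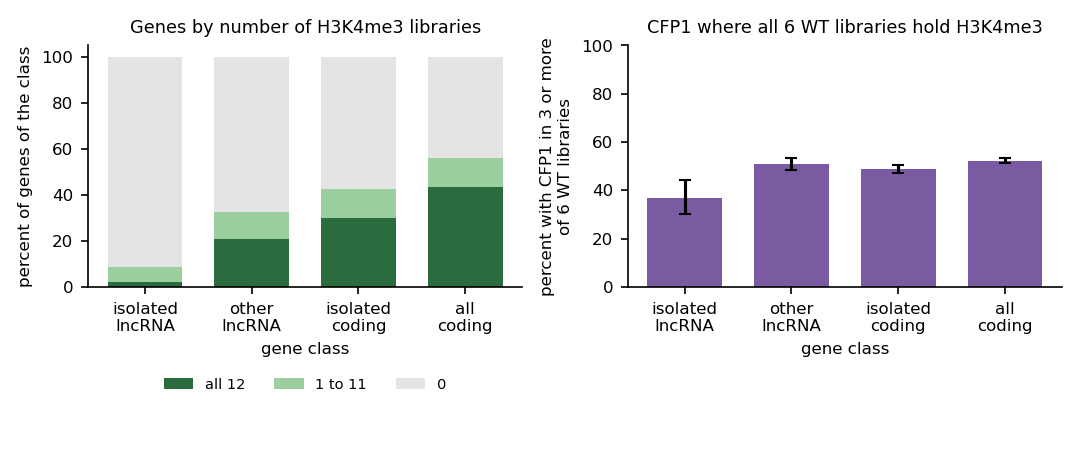
Left, the percent of genes of each class (x axis) that held H3K4me3 in all 12, in 1 to 11 or in 0 libraries. Right, among genes of each class with H3K4me3 in all 6 WT libraries, the percent with CFP1 in 3 or more of 6 WT libraries (bars; error bars are 95% Wilson intervals). Isolated lncRNA genes have the lowest bar in both panels, 2.1% for all 12 libraries and 36.9% for CFP1.

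The share marked was lower the farther a gene lay from coding genes. H3K4me3 in all 12 libraries was found at 4.36% of the 734 genes that lie 5 to 10 kb from the nearest coding gene, at 3.02% of the 2448 at 10 to 50 kb, at 1.29% of the 2014 at 50 to 200 kb and at 0.0889% (1 gene) of the 1125 farther away. Genes with a curated RefSeq transcript (NR record) were marked in all 12 libraries in 4.78% of 1463 cases, against 1.3% of the 4858 that have predicted transcripts (XR records) only. How much of the unmarked group is unused annotation was not tested.

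H3K4me3 peaks at isolated lncRNA genes were narrower and lower than at coding genes. The median width per library ran from 642 to 1112 b, against 867 to 1348 b at isolated coding genes. The median peak stood at the 32.3rd to 40.7th percentile of fold enrichment of its own list, against the 56.1st to 64.5th at isolated coding genes. Fold enrichment is the authors' own value for a peak within its list; where values from several lists stand side by side below, they are given to show the data, and no difference between lists is read from them. Start and end were told apart for 4325 isolated lncRNA genes and 14542 coding genes, fewer than the promoter table covers. Among these, 82.1% to 91.7% of the marked lncRNA genes of a library had a peak at the start (median 85.2%), against 97.2% to 97.7% of coding genes.

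Some unmarked genes had a peak farther out. Of the 5772, 63 had an H3K4me3 peak within 5000 b of an end in all 12 libraries and 398 in any library, beside the 133 and 549 genes marked inside the windows. A further start listed inside the gene, with no peak at either end, held H3K4me3 in any library at 25 genes and in all 12 libraries at 5.

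Marked genes had more CpGs in their promoters. The promoter table matched 4790 of the 6321 genes; the 1531 without an entry include all 243 on chromosome 18. A gene counted as marked with a peak at either end, while CpGs were counted at the start alone. C030034I22Rik (0 CpGs) and Gm33971 (2 CpGs), for example, were marked in all 12 libraries without a peak over the counted 300 b. The part of such genes in the shares below was not tested. The median number of CpGs in 300 b was 3 at genes without H3K4me3, 5 at genes marked in 1 to 11 libraries and 11 at those marked in all 12 (n = 112, quartiles 6 and 21.2). Isolated coding genes had medians of 3, 16 and 23 in the same order. By CpG class, H3K4me3 in all 12 libraries was found at 0.469% of isolated lncRNA genes with 0 to 2 CpGs, 1.68% with 3 to 9, 9.48% with 10 to 19 and 51.6% of the 62 with 20 or more (Wilson interval 39.4% to 63.6%). Isolated coding genes of the same classes were marked in 1.3%, 12.2%, 45.2% and 63%. The 2 gene classes lay closest together, as a ratio, in the most CpG-rich class.

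**Figure D2:**
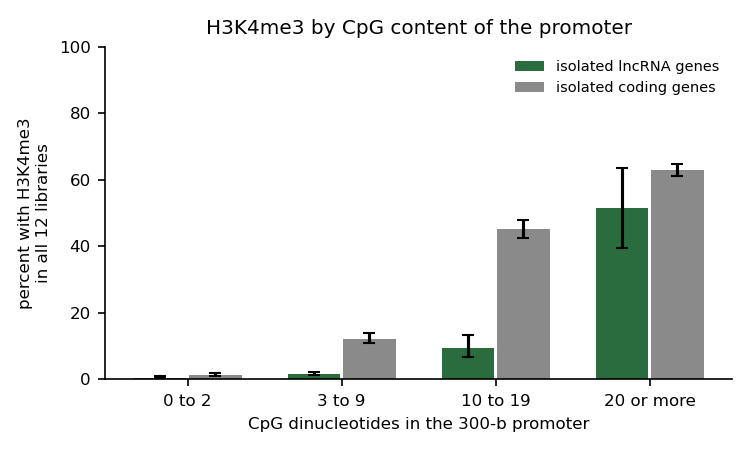
Percent of genes with H3K4me3 in all 12 libraries (y axis) by the number of CpGs in the 300-b promoter (x axis), for isolated lncRNA genes (green) and isolated coding genes (grey); error bars are 95% Wilson intervals. A peak at either gene end counts, while CpGs are those at the start. The lncRNA bars rise from 0.469% to 51.6%, and the coding bars from 1.3% to 63%.

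The sequence TATAAA, searched on both strands, occurred in 18.2% of the isolated lncRNA promoters and in 18% of the isolated coding promoters. Among those marked in all 12 libraries it occurred in 9.82% and 6.29%. Of all 25748 promoters in the table, 14.2% held it. Snhg5 holds it. A match is a description of letters, not a binding site.

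Most isolated snoRNA hosts were marked in every library. Only 5 of the 21 listed hosts met the rule of isolation, and 4 of these, Snhg5, Snhg17, Snhg20 and Dancr, held H3K4me3 in all 12 libraries, while Snhg11 held it in 0. The fold enrichment at Dancr, a host that is also studied as a regulator of differentiation, ran from 14.3 to 17.3 in WT libraries (median 16.5) and from 12.8 to 19.2 in KO libraries (median 17.1), and Dancr stood at the 98.5th percentile of its lists in the median. Snhg17 ran from 10.2 to 14.3 in WT and 8.22 to 13.9 in KO, Snhg20 from 11.2 to 14.3 and 8.4 to 12.9, and Snhg5 from 8.04 to 10.3 and 7.16 to 10.3. A peak was thus called at each of these 4 genes in every WT and KO library. CFP1 was found at Snhg5 in 5 WT and 2 KO libraries, at Dancr in 3 and 0, at Snhg17 in 1 and 0, and at Snhg20 in 0 of 12. The 2 KO libraries at Snhg5 were KO NKp46+ and KO DN of replicate 2, whose CFP1 lists go against their label. The nearest H3K4me3 peak to Snhg11 lay 13669 to 14114 b away, although its promoter holds 21 CpGs.

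Of the nuclear and chromatin lncRNAs, 6 genes, under 7 of the 25 names, were members. Malat1 (speckle RNA), Neat1 (scaffold of paraspeckles), Norad (binds Pumilio proteins), Pvt1 (neighbour of Myc) and Oip5os1, also known as Cyrano, held H3K4me3 in all 12 libraries, and the imprinted gene H19 in 0. At Malat1 the H3K4me3 fold enrichment was 3.63 to 5.21 in WT and 3.36 to 6.77 in KO, with peaks up to 4249 b wide, and CFP1 was called in all 6 WT libraries (4.69 to 7.02, median 6.16) and in 4 KO libraries (4.6 to 6.02). Neat1 held CFP1 in 5 WT and 2 KO libraries, Oip5os1 in 4 and 0, Norad in 2 and 0 and Pvt1 in 0 of 12. Both KO libraries that held CFP1 at Neat1 were the ones labelled KO NKp46+ and KO DN of replicate 2. H3K4me3 at these 6 genes was outside the test given below, which needs 2 to 10 marked libraries, and CFP1 was tested at Malat1, Neat1, Norad and Oip5os1 (Fisher's exact test, adjusted p 0.286 to 0.657).

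Of 16 genes listed as hosts of microRNAs 10 were members. Of these, 7 held no H3K4me3, against 91.3% of all isolated lncRNA genes, among them Mir100hg, Mir99ahg, Mir9-3hg and Mirg. Whether the other members of the list, Lncpint, Miat and Mirt1, host a microRNA was not checked, so no share of hosts is read from it. Lncpint held H3K4me3 in all 12 libraries at 4.57 to 6.11 in WT and 4.68 to 5.23 in KO. Miat held it in 4 WT and 3 KO libraries, and Mirt1 in 1 and 1. Mir17hg, the host of an oncogenic microRNA cluster, had an H3K4me3 peak 1795 to 2081 b away in each library, outside the windows used. No peak lay within 1000 b of either of its annotated ends.

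Among immune lncRNAs, 7 genes, under 8 of the 22 names, were members. Morrbid, which restrains the neighbouring cell-death gene Bcl2l11, held H3K4me3 in all 12 libraries, at 5.75 to 6.55 in WT and 4.95 to 7.28 in KO, and CFP1 in 1 WT and 1 KO library. Trp53cor1, beside Cdkn1a, held H3K4me3 in 4 WT and 4 KO libraries, Carlr in 1 and 4, and Ifngas1, which lies 56141 b from Ifng, in 1 and 1. Ptgs2os2, Bvht and A130077B15Rik held none. Bvht also stands in the developmental list that follows and is counted in both, and its place among immune genes was not checked. Of the 9 members among 23 developmental lncRNAs with restricted expression, 6, such as Hotair, Rmst and Sox2ot, held none. Tunar held H3K4me3 in 5 WT and 3 KO libraries, and Pantr2 and Lncenc1 each in 0 and 2. Over all isolated lncRNA genes 91.3% held none, so neither the immune nor the developmental list was unmarked more often than the whole class.

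The highest H3K4me3 peaks, by median percentile among genes marked in all 12 libraries, were at Dancr, Gm29998 (97.3), Gm40720 (96.6), D130051D11Rik (95.2), the pair Gm31676 and LOC115487949, which share a peak (94.9), Gm33971 (93.7), Gm41603 (93.6), Gm33560 (92.9) and Gm33628 (91.4). Gm41603 lies 6176 b from Zfp119b and Gm40720 23362 b from Zfp938. CFP1 was absent from all 12 libraries at Gm33628, Gm33971 and Gm40720, although their H3K4me3 peaks were among the highest.

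**Figure D3:**
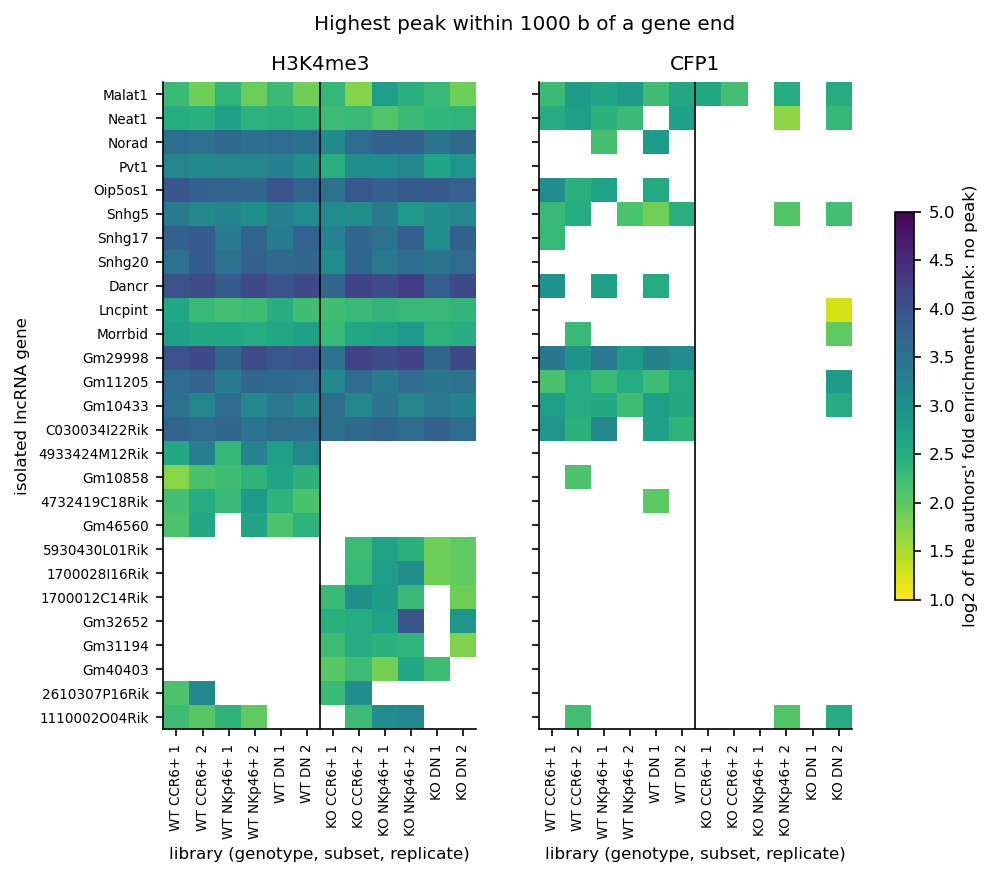
Log2 of the authors' fold enrichment of the highest peak within 1000 b of a gene end (colour; blank means no peak) for single isolated lncRNA genes (rows) in each library (columns; the line separates WT from KO), with H3K4me3 at left and CFP1 at right. From Malat1 to C030034I22Rik H3K4me3 is present in all 12 libraries, 4933424M12Rik to Gm46560 are filled in WT columns alone, and 5930430L01Rik to Gm40403 in KO columns alone.

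The question of the design is what loss of CFP1 does to these promoters. The number of isolated lncRNA genes with H3K4me3 in replicates 1 and 2 was 312 and 297 for WT CCR6+, 210 and 310 for WT NKp46+ and 260 and 307 for WT DN. The KO libraries held 172 and 396 (CCR6+), 353 and 408 (NKp46+) and 186 and 347 (DN). The WT mean was 283 ± 40.5 (SD, n = 6) and the KO mean 310 ± 105 (SD, n = 6), and the ranges overlapped. KO minus WT over the 6 same-numbered libraries was 27.7 ± 111 (SD), below 0 in 2 of 6. Within replicate 1 it was -23.7 and within replicate 2 it was 79, so the direction differed between replicates. Over the pairs left when any 1 library was dropped it ran from 4.6 (without either NKp46+ library of replicate 1) to 61.2 (without either CCR6+ library of replicate 1), and it was 13.4 without a CCR6+ library of replicate 2, 13.6 without an NKp46+ library of replicate 2 and 7 without both libraries whose CFP1 lists go against their label. A mean of the 3 subset differences, which keeps the unpaired partner of a dropped library, equals 27.7 with all libraries and was -9.67 without KO CCR6+ replicate 2, 0.833 without KO DN replicate 2 and -8.33 without both. Marked coding genes per library moved alike, from 10168 ± 340 in WT to 10438 ± 692 in KO (SD, n = 6 each).

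**Figure D4:**
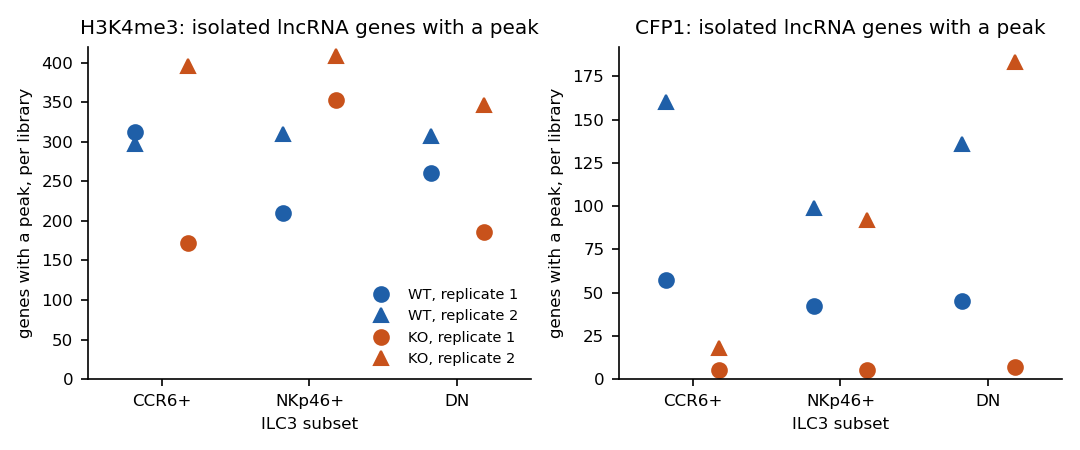
Number of isolated lncRNA genes with a peak (y axis) in each library, by subset (x axis), genotype (blue WT, orange KO) and replicate (circle 1, triangle 2), for H3K4me3 (left) and CFP1 (right). H3K4me3 counts run from 172 to 408 with WT and KO mixed, and CFP1 counts from 5 to 183 with replicate 2 above replicate 1 in every subset and genotype.

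Across single genes, H3K4me3 was tested by Fisher's exact test of 6 WT against 6 KO libraries at the 2586 autosomal genes with 2 to 10 marked libraries, and p-values were adjusted over all of them by the Benjamini-Hochberg method. No gene passed an adjusted p of 0.05 (smallest 0.622). Without adjustment, 52 genes (2.01%) had a p under 0.05, and 10 of the 295 isolated lncRNA genes tested did, 4 with fewer KO libraries (all genes 0.851%) and 6 with more (all genes 1.16%). The share of libraries with a peak was higher in KO at 146 of the 295 and lower at 97, against 1401 and 666 of the 2586. With 1 library left out, which also changes the p-values the test can give, the number of genes rose. It was 173 without KO CCR6+ replicate 1 and 181 without KO DN replicate 1, of which 21 and 18 were isolated lncRNA genes. Without both libraries that go against their label it was 87. The adjusted count stayed 0 in each of these settings. How many genes were tested in them is not given, so no share is read from these counts.

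Among the 4 that held H3K4me3 in fewer KO libraries, 4933424M12Rik, Gm10858 and 4732419C18Rik held it in all 6 WT and 0 of 6 KO libraries (exact p = 0.00216, which no split of 6 against 6 can go below; adjusted p = 0.622). Such a clean split occurred at 9 of all 2586 genes (0.348%), in 8 of them with the peak in WT (0.309%) and in 1 with the peak in KO (0.0387%). At 4933424M12Rik (chr4:107783686-107789922), 12278 b from Lrp8, the WT values were 6, 5.03 and 6.62 in replicate 1 and 9.71, 9.36 and 8.93 in replicate 2 (CCR6+, NKp46+ and DN). Its peaks were 560 to 1796 b wide, a peak overlapped the promoter shown above in 4 WT libraries, and CFP1 was called in 0 of 12. At Gm10858 (chr5:146895040-146897097), 47314 b from Rasl11a, the values were 3.26 to 6.32, and the peak lay over the shown promoter in all 6 WT libraries. Gm38748, a neighbour of Gm10858, held H3K4me3 in 4 WT and 0 KO libraries. At 4732419C18Rik (chr8:123744628-123754228), 51618 b from Rab4a, the values were 4.43 to 6.88. CFP1 was called there in 1 WT library and at Gm10858 in 1, so no CFP1 peak was called at any of these 3 genes in more than 1 WT library.

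Gm46560 (chr16:31508330-31513951) held H3K4me3 in 5 WT libraries, at 4.36 to 6.33, and in 0 KO libraries (exact p = 0.0152, adjusted p = 0.753). Its peak lay inside the gene and not over its listed promoter. Other genes with a large excess of WT libraries were Gm41386 (5 WT and 1 KO), 1810073O08Rik (6 and 2), and Gm11981 (4 and 0). Gm36372 and Gm48606 (both 4 and 0) overlap and share a peak. In the other direction, genes with a large excess of KO libraries included 2310040G24Rik (1 WT and 5 KO) and Gm31294, Gm35197 and Gm38944 (0 and 4 each), beside those given next.

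The 6 genes with more KO libraries each held H3K4me3 in 0 WT and 5 KO libraries (exact p = 0.0152, adjusted p = 0.753). They were Gm32652, 5930430L01Rik, 1700012C14Rik, 1700028I16Rik, Gm31194 and Gm40403. The KO library without a peak was KO CCR6+ replicate 1 at 5930430L01Rik and 1700028I16Rik, KO DN replicate 1 at Gm32652, 1700012C14Rik and Gm31194, and KO DN replicate 2 at Gm40403. KO CCR6+ replicate 1 and KO DN replicate 1 are the KO libraries with the shortest H3K4me3 lists. At 1700028I16Rik (chr10:82812123-82824242) the values were 5.02, 6.75, 8.17, 3.68 and 3.94, with peaks of 275 to 542 b over the promoter shown. At 5930430L01Rik (chr5:148990056-148995215) they were 4.77, 6.41, 5.44, 3.68 and 3.94, with peaks of 272 to 497 b. At Gm32652 (chr1:164858686-164899656), 31988 b from the chemokine gene Xcl1, they ran from 5.48 to 15.4, the highest in KO NKp46+ replicate 2. CFP1 was called at none of these 6 genes in any library. Their peaks, at 256 to 744 b, were narrower than the widest at 4933424M12Rik (1796 b). They overlapped in width those at 4732419C18Rik (384 to 1571 b), which was likewise marked in WT alone.

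**Figure D5:**
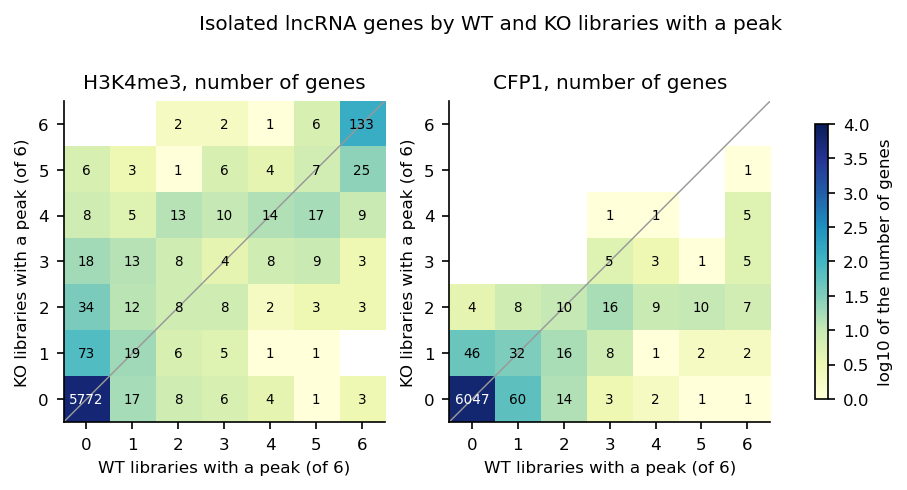
Number of isolated lncRNA genes (printed in each cell; colour is its log10) by the number of WT libraries (x axis) and KO libraries (y axis) with an H3K4me3 peak (left) or a CFP1 peak (right); the line marks equal numbers. For H3K4me3 the corners hold 133 genes with all 12 libraries, 3 genes with 6 WT and 0 KO and 0 genes with 0 WT and 6 KO; for CFP1 the cells below the line hold 167 genes and those above it 59.

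The balance differed between subsets without a test of that difference. Among isolated lncRNA genes marked in 1 or more of the 4 libraries of a subset, H3K4me3 lay in both KO and no WT libraries at 56 of 473 in NKp46+ cells (11.8%; all genes 3.96%), 5 of 457 in CCR6+ (1.09%; 0.329%) and 6 of 386 in DN (1.55%; 0.299%). It lay in both WT and no KO libraries at 3 genes in NKp46+ (0.634%; all genes 0.199%), 24 in CCR6+ (5.25%; 0.586%) and 8 in DN (2.07%; 0.398%). The direction that prevailed in each subset was the same over all genes. In NKp46+ the WT library of replicate 1 had the shortest WT list (12463 peaks) and both KO lists were long (16173 and 17602), and the part of list length in these counts was not tested.

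CFP1 was called at far fewer isolated lncRNA genes. The counts in replicates 1 and 2 were 57 and 160 for WT CCR6+, 42 and 99 for WT NKp46+ and 45 and 136 for WT DN, and in KO 5 and 18 for CCR6+, 5 and 92 for NKp46+ and 7 and 183 for DN. The WT mean was 89.8 ± 50 and the KO mean 51.7 ± 72.6 (SD, n = 6 each), and the KO library was below its WT counterpart in 5 of 6 cases, by -38.2 ± 62 (SD) in the mean. The exception was DN replicate 2. Over the pairs left when 1 library was dropped the difference ran from -55.2 (without a DN library of replicate 2) to -17.4 (without a CCR6+ library of replicate 2), and it was -67.2 without both libraries labelled KO that hold long CFP1 lists. As a mean of the 3 subset differences it was -82 without both, -67.5 without KO DN replicate 2 and -8.83 without KO DN replicate 1.

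Replicate number separated the CFP1 lists at these genes more clearly than at coding genes. In WT the replicate 2 lists were also longer, with 7815, 5416 and 7527 peaks against 5142, 4680 and 4492 in replicate 1 (CCR6+, NKp46+ and DN). The part of list length in these counts was not tested. WT libraries had 48 ± 7.94 bound isolated lncRNA genes in replicate 1 and 132 ± 30.7 in replicate 2 (SD, n = 3 each), without overlap, whereas bound coding genes numbered 4683 ± 284 and 4486 ± 690. Of the 274 isolated lncRNA genes with CFP1 in any library, 196 had it in replicate 2 libraries only and 11 in replicate 1 libraries only. The CFP1 peaks at these genes overlapped an H3K4me3 peak of the same subset, genotype and replicate in 89.7% to 100% of cases in WT replicate 1 (39 to 53 peaks) and in 66% to 77.4% in WT replicate 2 (93 to 153 peaks), against 98% to 99.9% at coding genes. Gm41950, 5830416I19Rik, 4833412C05Rik, Gm34350 and Gm29243 held CFP1 in all 6 replicate 2 libraries, KO included, and in 0 of 6 of replicate 1. 4833412C05Rik and Gm34350 overlap at their ends.

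A more demanding rule, CFP1 in 3 or more of 6 WT libraries, left 84 isolated lncRNA genes, of which 83 held H3K4me3 in at least 1 WT library. The exception was Gm38456, with CFP1 in 3 WT and 2 KO libraries and no H3K4me3. Of the 176 genes with H3K4me3 in all 6 WT libraries, 65 (36.9%, Wilson interval 30.2% to 44.3%) met that rule, against 49% of isolated coding genes and 52.3% of all coding genes. The share was 21.9% when peaks under a fold enrichment of 5 were left out. Among genes marked in all 12 libraries, those that met the rule had a median of 13 CpGs (n = 46) and those with CFP1 in 0 WT libraries a median of 8 (n = 42).

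CFP1 lay in all 6 WT libraries at 21 genes, Malat1 and Gm29998 among them. The highest by percentile was Gm8273 (chr4:8646963-8647457), with a median WT fold enrichment of 14 and CFP1 also in 4 KO libraries. 1700012D14Rik (9.32, 3 KO libraries), 1700096K18Rik (8.89, 4 KO libraries) and D130051D11Rik (7.33, 4 KO libraries) likewise kept CFP1 calls in KO libraries. At each of these 4 genes the libraries labelled KO NKp46+ and KO DN of replicate 2 were among them, and without these the KO calls numbered 2 at Gm8273, 1 at 1700012D14Rik, 2 at 1700096K18Rik and 2 at D130051D11Rik. Gm38882 and Gm38883 (3 KO libraries each) overlap and share a peak. All 21 held H3K4me3 in all 6 WT libraries and, with the exception of Gm52599 at 5, in all 6 KO libraries.

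In the test of 6 WT against 6 KO libraries over 6633 genes that held CFP1 in at least 2 and at most 10 libraries, 0 genes passed the adjusted threshold (Fisher's exact test with Benjamini-Hochberg adjustment, smallest 0.212) and 475 (7.16%), all with fewer KO libraries, had an unadjusted p under 0.05. Of the 167 isolated lncRNA genes tested, 4 did (2.4%). Fewer KO than WT libraries were seen at 106 of these 167, against 5982 of the 6633 genes. The count over all genes was 807 without WT NKp46+ replicate 2, 1042 without KO NKp46+ replicate 2 and 1451 without KO DN replicate 2. In the last case 295 genes passed the adjusted threshold, of which 3 were isolated lncRNA genes. Without both KO NKp46+ and KO DN of replicate 2, left out after their list lengths were seen, 845 did, of which 9 were. These libraries were singled out for their long CFP1 lists, so the rise follows in part from that choice and is no separate support for a loss. How many genes were tested in these settings is not given, so no share is read from these counts.

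The clearest case was Gm29998 (chr19:33391801-33418376), 80673 b from Lipo4. Its CFP1 values in replicate 1 were 10.8, 10.4 and 9.44 and in replicate 2 were 7.63, 7.15 and 8.39 (WT CCR6+, NKp46+ and DN), and it was called in 0 of 6 KO libraries, those with long lists included (exact p = 0.00216, adjusted p = 0.212). This was the only isolated lncRNA gene among the 62 genes (0.935%) with such a split. H3K4me3 at Gm29998 was nonetheless called in all 12 libraries, at 12.6 to 17.3 in WT and 11.1 to 18.5 in KO. The CFP1 peak overlapped the promoter shown in all 6 WT libraries.

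Gm11205 (chr11:79704570-79705014) and Gm10433 (chr12:100187968-100193538) held CFP1 in all 6 WT libraries and, among KO libraries, in the one labelled KO DN replicate 2 alone (exact p = 0.0152, adjusted p = 0.212). The WT values were 4.44 to 5.86 at Gm11205 and 4.73 to 6.81 at Gm10433, and the KO DN replicate 2 values 7.03 and 5.76. Without that library their adjusted p was 0.0462, as was that of Gm29998 (Fisher's exact test). Leaving out the only KO library with a call makes the split at Gm11205 and Gm10433 complete by itself, so this value is no separate support. C030034I22Rik (chr17:69416447-69419193) held CFP1 in 5 WT libraries (5.27 to 8.67) and 0 KO libraries (exact p = 0.0152, adjusted p = 0.212). Its promoter in the table holds 0 CpGs, and its peak lay downstream of the start and not over that promoter. All of these held H3K4me3 in 12 of 12 libraries, with WT and KO values of 10.1 to 13 and 8.87 to 12.1 at Gm11205, 8.83 to 12.2 and 9.04 to 11.7 at Gm10433, and 11.1 to 12.9 and 11.5 to 13.6 at C030034I22Rik.

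Differences between subsets were tested over the same 2586 genes, 4 libraries of a subset against the 8 others with the genotypes pooled, by Fisher's exact test with Benjamini-Hochberg adjustment, and 0 genes passed the adjusted threshold (smallest 1 in each). Without adjustment, 24 genes had a p under 0.05 for CCR6+ (0.928%; 0.735% more and 0.193% less often marked in that subset), 15 for NKp46+ (0.58%; 0.348% and 0.232%) and 22 for DN (0.851%; 0.657% and 0.193%). Of these, 1, 2 and 4 were isolated lncRNA genes. With 1 library left out these counts moved to between 8 and 42, 7 and 24, and 10 and 45. The lowest came without WT CCR6+ replicate 2, KO NKp46+ replicate 2 and WT DN replicate 2, the highest without KO NKp46+ replicate 2, KO CCR6+ replicate 2 (equal to KO DN replicate 1) and WT NKp46+ replicate 1.

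For CCR6+ the gene was 2610307P16Rik (chr13:28460034-28885422), 63497 b from Sox4, with H3K4me3 in all 4 CCR6+ libraries and 0 of 8 others (exact p = 0.00202, adjusted p = 1), at 4.34 and 8.69 in WT and 4.84 and 8.23 in KO. The split was seen at 3 of 2586 genes (0.116%). For NKp46+ they were Gm34484 and Gm40441. For DN they were Gm37004 and Gm32309, each marked in 3 of 4 DN libraries and 0 of 8 others, and 1110002O04Rik and 5033406O09Rik, which held H3K4me3 less often in DN, 1110002O04Rik in 0 of 4 DN and 7 of 8 other libraries. The fold enrichment at 1110002O04Rik ran from 3.95 to 5.25 in WT and from 4.77 to 8.98 in KO.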

How the data were processed

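The authors deposited 1 narrowPeak list per library; the build is mm10, and MACS2 2.2.7.1, Bowtie2 2.3.5.1, fastp 0.19.7, ChIPseeker 1.28.3 and Picard appear in the submitters' processing notes, without a role. Settings and any control: not given in the sources used here. Deposited fold enrichment (a ratio) was ranked within a list, printed by library without a test, and averaged nowhere but as a median over libraries; the deposited −log10 p-value and q-value served to check the lists (smallest −log10 q 1.30 to 1.42), and the deposited score was not used. Depth is unknown. Intervals cover counting error only.

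The members and gene lists were chosen with earlier results of these data known. Genes came from RefSeq (GRCm38.p6, the coordinates of mm10), with peaks assigned within 1000 b of either gene end. Fisher's exact test with Benjamini-Hochberg adjustment at 0.05 was run on all autosomal coding and lncRNA genes present in 2 to 10 of 12 libraries, after a test on simulated data. Named are list members, the 10 genes most in excess in WT and the 10 in KO for each antibody (by at least 2 libraries), 5 per subset, the 10 with most WT CFP1 and the 10 with the highest H3K4me3 percentile; ties go to the higher median percentile, and not all are printed. Gm38456 and the 5 genes bound in replicate 2 alone lie outside that rule and were chosen after their values were seen. The driver of the Cre and 1 marker list are not reported here. Promoter sequences came from RefSeq. Scripts ran in Python 3.11.15 with SciPy 1.17.1, pandas 2.3.3, NumPy 2.4.6 and, for plots, matplotlib 3.10.9. Alternatives were windows of 500 and 2000 b, summits, a fold enrichment of 5, isolation by 10 kb, further biotypes, the start alone, single libraries left out, the replicate block, single replicates, a permutation within subsets and a wider filter.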

Additional observations from a re-analysis of the deposited data

How the results depend on the processing

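Depth, which is unknown, limits every absence. The share of isolated lncRNA genes with H3K4me3 in all 12 libraries was 2.59% with a window of 2000 b and 1.71% at a fold enrichment of 5 or more, where the share with CFP1 among marked genes was 21.9% and the NKp46+ count was 8. With libraries left out in turn, the H3K4me3 difference per library, as a mean of subset differences, ran from -9.67 to 65 and the CFP1 difference from -67.5 to -8.83; H3K4me3 genes at unadjusted p under 0.05 numbered 57 to 181 and CFP1 genes 483 to 1451; the subset counts ran from 8 to 42 (CCR6+), 7 to 24 (NKp46+) and 10 to 45 (DN); the marked share from 2.1% to 2.31% and the CFP1 share from 26.7% to 36.9%. Without both KO NKp46+ replicate 2 and KO DN replicate 2, a choice made after seeing the data, 87 H3K4me3 and 2345 CFP1 genes were counted. Dropping a library also changes the p-values that Fisher's exact test can give. At 1700031P21Rik, with CFP1 in 6 WT and 2 KO libraries, p was 0.0606 with all libraries and 0.0152 without KO DN replicate 2. Counts with a library left out are thus not on the same scale as the main counts of 52 and 475. How much else lies behind these shifts was not tested. The same replicate numbers pair the samples only loosely: deviations of WT and KO correlated at 0.045, 0.083 and 0.221 for CFP1 and 0.096, 0.163 and 0.286 for H3K4me3 (CCR6+, NKp46+, DN), not above 0.1 in every pair. With the replicate block, an exact sign-flip over 6 pairs, a gene can reach p under 0.05 only when all 6 pairs go the same way. The 9 H3K4me3 and 62 CFP1 genes at unadjusted p under 0.05 are therefore the clean splits of 6 against 0 libraries already counted. They are no separate support. The mean differences of 27.7 and -38.2 are the same by construction. The other 185 recomputed summary values kept their direction or stayed within the limits set. None of 238 values of single genes reversed, but a fall to no difference was not counted as a reversal. These genes were named for large differences in the same data, and the replicate block cannot change their difference, so this is no evidence of stability. The H3K4me3 difference per library, within its spread, was below 0 within replicate 1 (-23.7). As a mean of subset differences it was also below 0 without KO CCR6+ replicate 2 (-9.67) and without both libraries (-8.33). Over the remaining pairs, an estimator added after seeing the data, it was above 0 in these settings (13.4 and 7).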
